A study of Homo sapiens with 6 samples.

Results

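The genes described here encode ubiquitin-conjugating enzymes, known as E2s, and were measured in AsPC-1, an established line of human pancreatic cancer cells. They were chosen by name: every gene symbol that starts with UBE2 followed by a letter, with only letters or digits after it, was taken. The rule found 33 of the 15832 genes in the deposited table. RNA was sequenced from 3 siControl libraries and 3 siVCPIP1 libraries, 48 h after the cells had received a control siRNA or an siRNA against VCPIP1, which encodes a deubiquitinating enzyme. Both groups are the same cell line and differ, as far as the labels say, only in the siRNA. How many siRNAs were used, and which, is not given in these sources. Nothing in the labels ties the 3 libraries of a group to separate cultures, and p-values then reflect only library-to-library spread, which may be technical.

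Ubiquitin is attached to proteins in a relay. An E1 enzyme activates ubiquitin and passes it to the catalytic cysteine of an E2, and the E2 works with an E3 ligase that selects the substrate. The E2 often sets which linkage a ubiquitin chain has, and so what happens to the substrate: K48- and K11-linked chains mark proteins for the proteasome, whereas K63-linked chains serve signalling and DNA repair. A few E2s carry ubiquitin-like proteins instead, such as SUMO, NEDD8 and ISG15. VCPIP1 works at the other end of this system, removing ubiquitin.

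A few small families carry much of what follows, because their members share the residues around the catalytic cysteine while their messages differ in base composition and in measured change. The 63 coding bases centred on the codon of that cysteine are shown for them and for UBE2M and UBE2S, the E2 genes that were higher in siVCPIP1. Each is written 5′ to 3′ along the coding strand, with the cysteine codon in capitals, from 1 GENCODE release 29 transcript per gene (GRCh38).
UBE2A: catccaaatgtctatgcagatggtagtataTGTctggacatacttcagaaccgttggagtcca
UBE2B: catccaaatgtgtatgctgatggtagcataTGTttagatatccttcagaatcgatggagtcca
UBE2D1: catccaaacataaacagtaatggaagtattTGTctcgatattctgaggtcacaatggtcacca
UBE2D2: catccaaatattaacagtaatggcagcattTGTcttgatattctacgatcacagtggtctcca
UBE2D3: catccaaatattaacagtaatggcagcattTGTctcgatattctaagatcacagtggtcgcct
UBE2D4: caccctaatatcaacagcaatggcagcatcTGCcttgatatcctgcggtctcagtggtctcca
UBE2E1: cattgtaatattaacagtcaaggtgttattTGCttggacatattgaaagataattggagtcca
UBE2E2: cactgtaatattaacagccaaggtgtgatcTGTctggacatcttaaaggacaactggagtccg
UBE2E3: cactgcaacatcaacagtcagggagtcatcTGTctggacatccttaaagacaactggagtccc
UBE2M: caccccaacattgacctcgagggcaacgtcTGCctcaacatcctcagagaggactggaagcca
UBE2S: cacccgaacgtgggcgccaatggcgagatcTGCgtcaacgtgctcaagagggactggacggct
Within each of the UBE2A/UBE2B, UBE2D and UBE2E families, all 21 codons of this stretch encode the same residues. UBE2D1 and UBE2D4 nevertheless differ at 15 of the 63 bases, 14 of them at the third position of a codon. UBE2D2 and UBE2D3 differ at 4, and UBE2A and UBE2B at 9. The third base of a codon in the stretch was G or C in 28.6% of codons of UBE2D1, 23.8% of UBE2D2, 33.3% of UBE2D3 and 61.9% of UBE2D4. In UBE2M and UBE2S it was G or C in 85.7% and 90.5% of codons. Reads from such related stretches may be shared out between genes by the counting step, which none of the sources describes.

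VCPIP1, the targeted gene, was listed at 2.93, 3.06 and 2.24 TPM in siControl and 0.12, 0.11 and 0.27 TPM in siVCPIP1 (log2 fold change -1.68, SE 0.13, adjusted p = 2.0e-05, limma; exact permutation p = 0.1, the smallest that 3 libraries against 3 allow). TPM is a length-scaled share of all transcripts in a library, and the read depth behind it is unknown. After correction for GC content and length, explained below, the change of VCPIP1 was 0.27 (adjusted p = 0.065) with the pseudocount of 1 TPM used throughout and -0.55 (adjusted p = 0.016) with a pseudocount of 0.1 TPM, so its direction there depended on the pseudocount. The libraries of the groups differed as wholes. Median TPM over all genes lay between 6.18 and 7.44 in siControl and between 1.24 and 2.26 in siVCPIP1, where replicate 3 was the highest. Genes with a transcript GC content under 45% held 13.3% to 15.5% of TPM in siControl and 3.75% to 5.95% in siVCPIP1. All 10 epithelial and pancreatic cancer markers had a mean of at least 1 TPM in siControl and 7 did in siVCPIP1, where EPCAM, a surface marker of epithelium, was 3.19, 2.99 and 11.7 TPM against 162, 196 and 157 in siControl, while their summed level was 13907 to 16035 and 20960 to 23776 TPM. Markers of other cells were low in the libraries: the summed endothelial markers reached at most 1.30 TPM and the acinar markers at most 1.09. PTPRC, which marks leukocytes, reached at most 0.66 TPM, although CD68 took the immune sum to 144 to 150 TPM in siControl and 122 to 159 TPM in siVCPIP1. The fibroblast markers summed to 45.3 to 69.0 TPM in siControl and 1.5 to 4.51 TPM in siVCPIP1, nearly all of it LUM, with COL1A1 at most at 1.05 TPM. The part of these differences in the results below was not tested.

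Most E2 messages were lower in siVCPIP1, as were most messages of any kind. Of the 32 E2 genes whose mean reached 1 TPM, 27 fell, 2 rose and 3 were not called (limma on log2(TPM + 1), Benjamini-Hochberg adjusted p under 0.05 over 10966 genes). Among all tested genes 66.0% fell and 15.0% rose, against 84.4% and 6.25% of the E2 genes. In either direction 81.0% of all genes and 29 of the 32 E2 genes were called. The median log2 fold change was -1.94 for the E2 genes and -1.12 for all genes, and the median E2 gene kept 24.2% of its siControl mean, against 39.1% for all genes. TPM did not overlap between the groups in 29 E2 genes (90.6%), where this held for 86.0% of all tested genes. Whether fewer of the cells carried a message, or each carried less of it relative to other messages, cannot be told apart in such bulk libraries. In each of the 27 that fell, siVCPIP1 replicate 3 was the highest of its group, as in 96.5% of all genes that fell. UBE2L5, a close relative of UBE2L3 whose bases around the cysteine codon differ from it at 2 of 63, was not tested, with 0.17, 0.37 and 0.17 TPM in siControl and 0.12, 0.07 and 0.19 TPM in siVCPIP1.

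**Figure D1:**
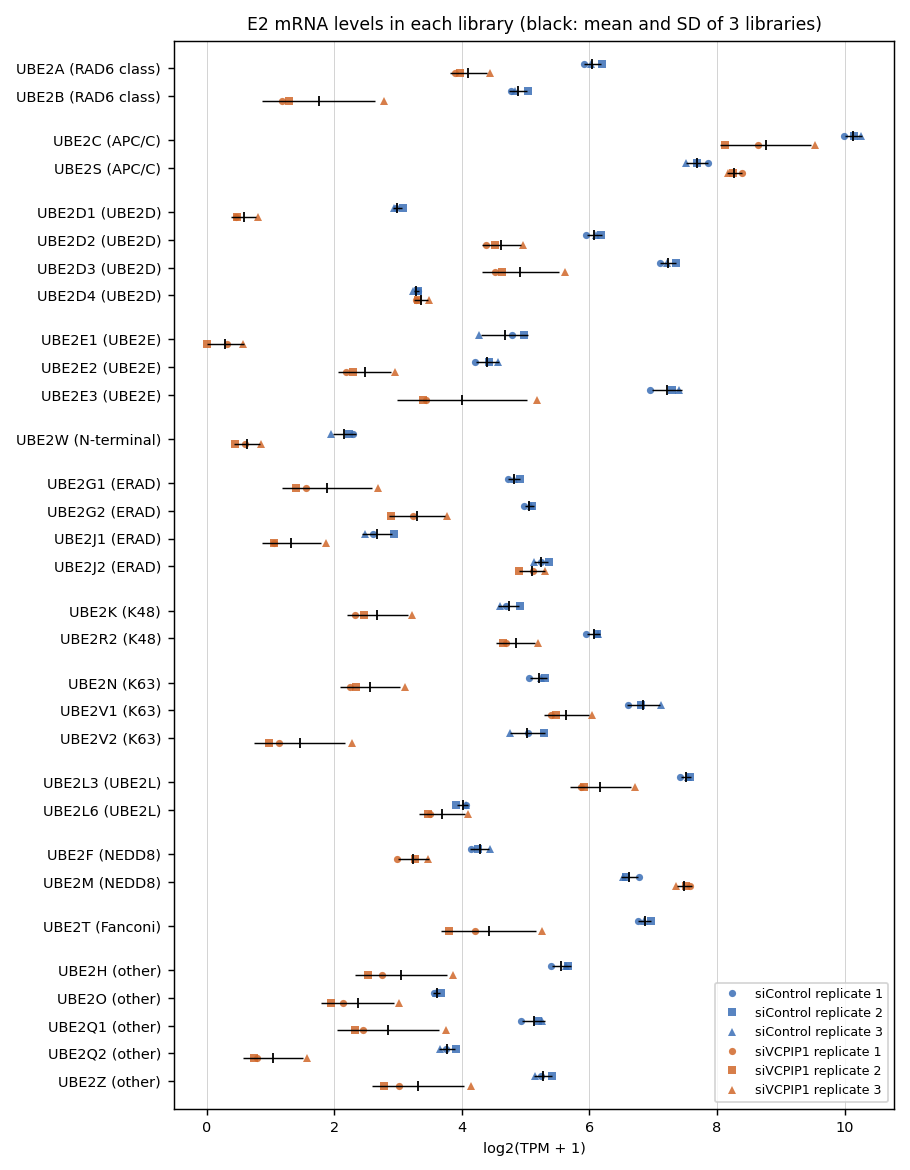
Level of 31 tested E2 genes as log2(TPM + 1) in every library, grouped by role. Blue marks are siControl, orange marks siVCPIP1, the shape gives the replicate, and black bars give mean and SD (n = 3). Orange lies to the left of blue in most genes and to the right in UBE2M and UBE2S.

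The share of E2 genes that fell depended on how the libraries were scaled. Median-of-ratios scaling, which divides each library by 1 factor, left 20 lower and 5 higher, with all genes at 45.1% lower and 40.3% higher. Quantile normalization, which gives every library the same distribution, left 23 lower and 6 higher, against 38.8% and 42.2% of all genes. GC and length correction removes the smooth trend of each library on transcript GC content and length, and gave 16 lower and 11 higher, against 31.7% and 37.2%. Under these scalings in turn, the median log2 fold change of the E2 genes was -0.82, -0.89 and -0.33, and that of all genes -0.14, 0.04 and 0.07. For the E2 genes, calls lost under these 3 scalings are given below. For most partner lists the counts after GC and length correction are given. A call of UBE2S as higher and calls of UBE2E1, UBE2E3, UBE2V2, UBE2H, UBE2Q1, UBE2Q2 and UBE2Z as lower were made under all of these and under 2 further forms of the correction, with a pseudocount of 0.1 TPM (12 lower and 12 higher, all genes 31.0% and 36.0%) and with coding GC and coding length (15 lower and 11 higher, all genes 33.5% and 40.2%). In either direction, calls were made for 25 of 32 E2 genes after median-of-ratios scaling (all genes 85.4%), 29 after quantile normalization (81.0%), 27 after GC and length correction (68.9%) and 24 with the lower pseudocount (67.0%). With that pseudocount corrected calls of UBE2B (-0.59), UBE2G1 (-0.36) and UBE2G2 (-0.24) as lower were lost (adjusted p = 0.06, 0.111 and 0.11, limma). So were those of UBE2N as lower (-0.04, adjusted p = 0.775) and UBE2M as higher (0.21, adjusted p = 0.063). The coding form lost those of UBE2T as lower (-0.37, adjusted p = 0.081) and UBE2E2 as higher (0.012, adjusted p = 0.934). In that form UBE2A turned from higher to lower (-0.35) and UBE2J2 from lower to higher (0.72).

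**Figure D2:**
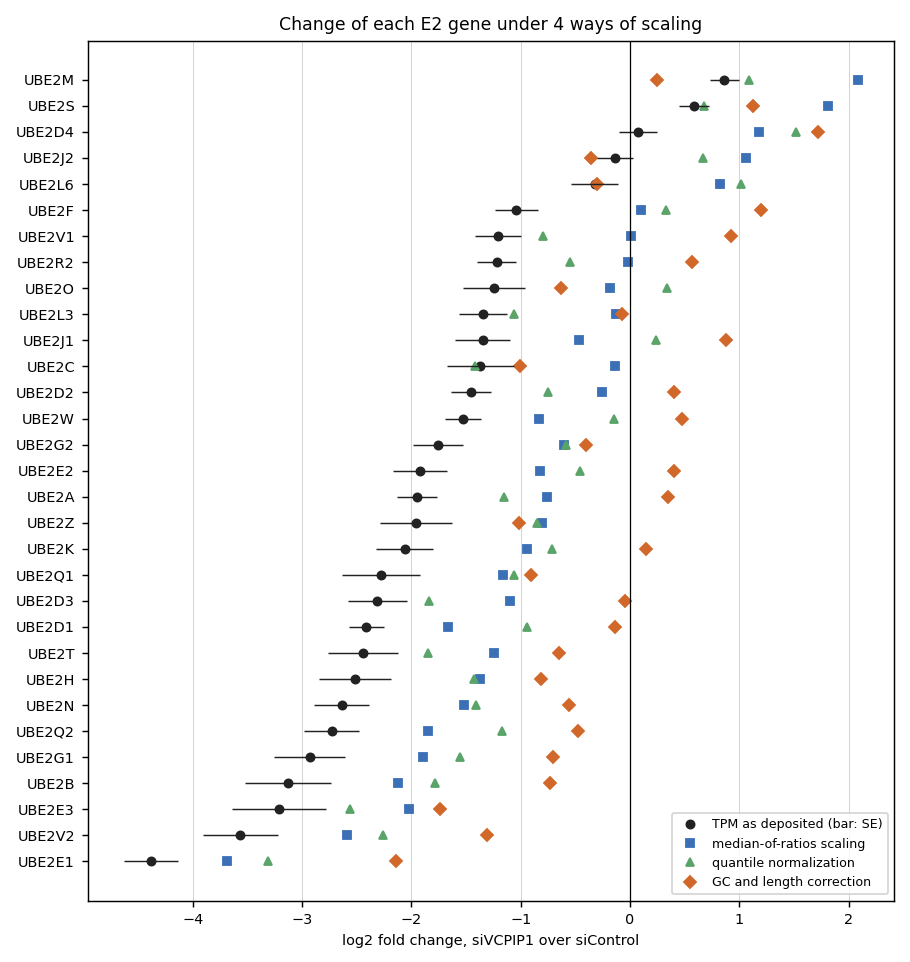
Log2 fold change of 31 E2 genes with TPM as deposited (black, with SE) and after median-of-ratios scaling, quantile normalization and GC and length correction. UBE2S stays right of 0 in all 4, while genes such as UBE2F run from -1.04 as deposited to 1.20 after GC and length correction.

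The E2s of the anaphase-promoting complex (APC/C), the ligase that drives exit from mitosis, moved apart. UBE2C starts the chains that this complex builds and was the most abundant E2 message, at 1017, 1137 and 1223 TPM in siControl and 398, 278 and 738 TPM in siVCPIP1. The groups did not overlap (log2 fold change -1.37, SE 0.30, adjusted p = 0.00262), but with median-of-ratios scaling it was no longer called (-0.14, adjusted p = 0.581). UBE2S extends those chains through K11 linkages. It was listed at 231, 205 and 182 TPM in siControl and 335, 304 and 287 TPM in siVCPIP1, so that all 3 siVCPIP1 libraries were above all 3 siControl libraries (log2 fold change 0.58, SE 0.13, adjusted p = 0.00317). The TPM ratio of UBE2C to UBE2S was 4.4, 5.54 and 6.73 in siControl and 1.19, 0.914 and 2.58 in siVCPIP1, and a single scaling factor per library cannot change such a ratio. The difference in log2(TPM + 1) changed by -1.95 between the groups (two-sided exact permutation p = 0.1). Such differences did not overlap between the groups in 82.7% of all pairs of tested genes, the share against which the pairs below also stand. In siVCPIP1 replicate 2, UBE2S was more abundant than UBE2C. UBE2C lies at chr20:45812576-45816957, plus strand, and UBE2S at chr19:55399745-55407777, minus strand (GRCh38). UBE2C made up 36.2% ± 1.69 of siControl E2 TPM and 32.5% ± 7.87 of siVCPIP1 E2 TPM, and UBE2S 6.68% ± 1.22 and 23.3% ± 6.48 (SD, n = 3).

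Of the listed APC/C genes, 12 of 17 fell, 4 rose and 1 was not called, with a median of -1.0 on the log2 scale. As deposited, 66.0% of all tested genes fell and 15.0% rose, and list counts below as deposited stand against these shares. Those after GC and length correction stand against 31.7% lower and 37.2% higher, and those after median-of-ratios scaling against 45.1% and 40.3%. FBXO5, an inhibitor of the complex, fell most (16.7, 18.1 and 8.59 TPM in siControl and 0.22, 0.22 and 0.88 in siVCPIP1), followed by the subunits ANAPC10 (-3.19), ANAPC13 (-2.82) and CDC23 (-2.73). The 4 that rose were ANAPC11, the RING subunit that engages the E2 (from 280.2 ± 13.2 to 429 ± 44.5 TPM), ANAPC2, its cullin partner (from 18.9 ± 2.18 to 25.4 ± 0.86 TPM), ANAPC15 (from 165 ± 18.8 to 260.2 ± 28.9 TPM) and the coactivator FZR1 (from 58.5 ± 7.02 to 80.04 ± 5.98 TPM; SD, n = 3). The activator CDC20 was not called (0.23, adjusted p = 0.104, limma) and was higher after median-of-ratios scaling (1.46). Calls of a rise fell from 4 to 2 without siControl replicate 2, siControl replicate 3 or siVCPIP1 replicate 1, and to 3 without siVCPIP1 replicate 2 or with the replicate block. After GC and length correction 5 of the 17 were lower and 10 higher, with ANAPC2 not called (0.18).

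The paired E2s for NEDD8, the ubiquitin-like protein that activates cullin ligases, also moved apart as deposited. UBE2M, which serves RBX1 and most cullins, was listed at 109, 94.1 and 91.01 TPM in siControl and 191, 183 and 162 TPM in siVCPIP1. All 3 siVCPIP1 libraries were above siControl, and UBE2M had the largest rise of the E2 genes as deposited (log2 fold change 0.86, SE 0.13, adjusted p = 3.1e-04). It was called higher under every scaling except the corrected fit with a pseudocount of 0.1 TPM, and was smallest there and after GC and length correction (0.24, adjusted p = 0.0352). UBE2F, which serves RNF7 and CUL5, was listed at 16.8, 18.0 and 20.8 TPM in siControl and 6.94, 8.60 and 10.1 TPM in siVCPIP1. Its fall (log2 fold change -1.04, SE 0.20, adjusted p = 0.00105) was not called after median-of-ratios scaling (0.10) or quantile normalization (0.33) and turned to a rise of 1.20 after GC and length correction. The TPM ratio of UBE2F to UBE2M was 0.154, 0.191 and 0.229 in siControl and 0.0364, 0.047 and 0.062 in siVCPIP1 (exact permutation p = 0.1). All 7 listed NEDD8 ligase genes fell as deposited, among them DCUN1D4 (-2.23), DCUN1D1 (-2.003), DCUN1D5 (-1.87) and RBX1 (-1.27), but median-of-ratios scaling left 3 of them lower and 0 higher. After GC and length correction 0 of the 7 were lower and 2 higher. UBE2M lies at chr19:58555712-58558960, minus strand (GRCh38).

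The genes for SUMO, its activating enzyme and its ligases were mostly lower as deposited. SUMO2 was listed at 118, 137 and 121 TPM in siControl and 22.2, 19.5 and 37.3 TPM in siVCPIP1, and SUMO3 at 95.6, 120.0 and 122 TPM and 21.8, 23.1 and 37.1 TPM. These falls of 2.26 and 2.04 on the log2 scale left no overlap between the groups. UBA2, the catalytic subunit of the SUMO E1, was at 34.1, 42.3 and 30.7 TPM and 2.12, 1.59 and 3.97 TPM (-3.41; -1.39 after GC and length correction), and its partner SAE1 fell by 1.42. That correction left SUMO3 and SAE1 lower (-0.62 and -0.39), whereas SUMO2 was not called (-0.17, adjusted p = 0.151, limma). SAE1 was also not called after median-of-ratios scaling. Of 14 SUMO ligases, proteases and other partners, 12 fell and 2 rose, namely PIAS4 (0.48) and RANGAP1 (0.57), a well-known SUMO substrate. The largest falls were those of the nucleoporin and ligase RANBP2 (-2.36) and the SUMO proteases SENP1 (-2.31), SENP6 (-2.14) and SENP2 (-2.12). After GC and length correction 5 of the 14 were lower and 5 higher, with SENP1 (-0.21) and SENP6 (-0.16) not called. Without siControl replicate 2 or siVCPIP1 replicate 1, 1 of the 14 was higher.

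UBE2D enzymes work with a great many ligases, and 4 genes encode nearly the same protein. UBE2D3, the most abundant of them, was at 137, 163 and 148 TPM in siControl and 21.99, 23.7 and 47.9 TPM in siVCPIP1 (log2 fold change -2.31, SE 0.27, adjusted p = 6.2e-05). UBE2D2 was at 60.9, 71.6 and 67.5 TPM and 19.7, 22.01 and 30.2 TPM (log2 fold change -1.46, SE 0.18, adjusted p = 9.4e-05). UBE2D1 was at 6.81, 7.42 and 6.64 TPM and 0.38, 0.39 and 0.74 TPM (log2 fold change -2.41, SE 0.16, adjusted p = 2.0e-05). In these 3 genes the groups did not overlap, with every siVCPIP1 library below every siControl library. UBE2D4 was at 8.98, 8.91 and 8.43 TPM and 8.75, 8.89 and 10.2 TPM, with overlapping groups and no call (log2 fold change 0.07, SE 0.18, adjusted p = 0.711).

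The balance within the UBE2D family therefore differed between the groups, as it did in most pairs of tested genes (82.7% without overlap). The TPM ratio of UBE2D3 to UBE2D4 was 15.3, 18.3 and 17.6 in siControl and 2.51, 2.66 and 4.67 in siVCPIP1 (exact permutation p = 0.1). That of UBE2D1 to UBE2D4 was 0.758, 0.833 and 0.788 in siControl and 0.0434, 0.0439 and 0.0723 in siVCPIP1 (exact permutation p = 0.1). UBE2D1 was the scarcer of the family in siVCPIP1 also against UBE2D3, at ratios of 0.0497, 0.0454 and 0.0447 in siControl and 0.0173, 0.0165 and 0.0155 in siVCPIP1. Those TPM ratios did not overlap, whereas on the log2(TPM + 1) scale, where the pseudocount weighs on the low UBE2D1, the pair did overlap and differed by -0.10 (exact permutation p = 0.9). UBE2D4 was higher after median-of-ratios scaling (1.18), quantile normalization (1.52) and GC and length correction (1.72). That correction ended the calls of UBE2D1 (-0.14) and UBE2D3 (-0.05) and turned UBE2D2 to 0.40, and median-of-ratios scaling ended the call of UBE2D2 (-0.26). Transcript GC content was 34.0%, 46.6%, 43.1% and 47.8% for UBE2D1, UBE2D2, UBE2D3 and UBE2D4. The genes lie at chr10:58334975-58370753, plus strand, chr5:139526431-139628433, plus strand, chr4:102794383-102868896, minus strand and chr7:43926438-43956136, plus strand (GRCh38).

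The UBE2E enzymes are close relatives of UBE2D with an N-terminal extension, and they held the largest fall of the E2 genes. UBE2E1 was at 26.6, 30.5 and 18.2 TPM in siControl and at 0.25, 0 and 0.48 TPM in siVCPIP1 (log2 fold change -4.38, SE 0.25, adjusted p = 2.0e-05). It was thus close to or at 0 in every siVCPIP1 library, and lay 23rd of the 32 E2 genes by siControl mean and last by siVCPIP1 mean. UBE2E3 was at 122, 156 and 168 TPM and 9.89, 9.49 and 35.2 TPM (log2 fold change -3.21, SE 0.43, adjusted p = 1.3e-04). UBE2E2 was at 17.5, 20.6 and 22.7 TPM and 3.54, 3.91 and 6.75 TPM (log2 fold change -1.92, SE 0.25, adjusted p = 9.9e-05). Transcript GC content did not order these 3, at 42.8% for UBE2E1, 41.8% for UBE2E2 and 48.5% for UBE2E3. After GC and length correction UBE2E1 and UBE2E3 were still lower (-2.14 and -1.74), whereas UBE2E2 turned to 0.40 (adjusted p = 0.0246, limma). UBE2E1 lies at chr3:23805903-23891316, plus strand, UBE2E2 at chr3:23203020-23591793, plus strand, and UBE2E3 at chr2:180967248-181076585, plus strand (GRCh38).

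UBE2N builds K63-linked chains together with UBE2V1 or UBE2V2, variants that lack the catalytic cysteine. UBE2N was at 32.3, 38.7 and 36.8 TPM in siControl and 3.76, 4.06 and 7.63 TPM in siVCPIP1 (log2 fold change -2.64, SE 0.25, adjusted p = 2.4e-05). UBE2V2 was at 31.9, 38.3 and 25.9 TPM and 1.20, 0.96 and 3.86 TPM (log2 fold change -3.56, SE 0.35, adjusted p = 2.6e-05). UBE2V1 was at 96.7, 111 and 138 TPM and 41.1, 43.4 and 65.04 TPM (log2 fold change -1.21, SE 0.21, adjusted p = 6.3e-04), a smaller fall that was 0.01 after median-of-ratios scaling and turned to 0.92 after GC and length correction. The TPM ratio of UBE2V1 to UBE2V2 was 3.03, 2.91 and 5.33 in siControl and 34.3, 45.2 and 16.8 in siVCPIP1 (exact permutation p = 0.1). UBE2V1 overlaps PEDS1-UBE2V1, a readthrough gene listed at 37.2, 45.01 and 35.4 TPM and 6.75, 3.21 and 20.8 TPM, and how reads were split between these was not given. UBE2N was lower under all 3 scalings, at -0.56 after GC and length correction, though that call was lost with a pseudocount of 0.1 TPM (-0.04).

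Of 8 tested K63 partners, 6 fell and 2 rose. TRAF2, an adaptor of TNF receptor signalling, rose from 77.96 ± 6.86 to 121 ± 7.44 TPM, and OTUB1, a deubiquitinase that also binds UBE2N and blocks it without cutting ubiquitin, rose from 154 ± 15.1 to 265 ± 18.4 TPM (SD, n = 3). HLTF, which extends chains on PCNA, was at 5.86, 6.40 and 2.23 TPM in siControl and 0.04, 0.09 and 0.18 TPM in siVCPIP1. The DNA damage ligases RNF168 (-1.81) and RNF8 (-1.03) fell as well, though RNF8 turned to 0.88 and RNF168 (0.06) and HLTF (-0.10) were not called after GC and length correction, where 0 of the 8 were lower and 6 higher.

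UBE2A and UBE2B, the human counterparts of yeast RAD6, ubiquitinate PCNA with RAD18 and histone H2B with RNF20 and RNF40. UBE2A was at 59.7, 72.2 and 64.4 TPM in siControl and 13.9, 14.7 and 20.7 TPM in siVCPIP1 (log2 fold change -1.95, SE 0.19, adjusted p = 2.5e-05). UBE2B was at 26.4, 31.9 and 27.5 TPM and 1.28, 1.46 and 5.86 TPM (log2 fold change -3.13, SE 0.39, adjusted p = 9.0e-05). Both fell with no overlap, but the TPM ratio of UBE2A to UBE2B was 2.26, 2.27 and 2.34 in siControl and 10.8, 10.1 and 3.53 in siVCPIP1 (exact permutation p = 0.1), a shift that was smallest in siVCPIP1 replicate 3. UBE2A turned to 0.35 after GC and length correction but was lower in the coding form (-0.35, adjusted p = 0.016, limma). UBE2B was still lower after GC and length correction (-0.73), a call lost with a pseudocount of 0.1 TPM (-0.59). UBE2A lies at chrX:119574467-119591083, plus strand, and UBE2B at chr5:134371179-134391992, plus strand (GRCh38). Of 7 partners 6 fell, led by WAC (-2.67) and RNF20 (-2.11), and RNF40 rose from 34.04 ± 1.99 to 44.1 ± 2.62 TPM (SD, n = 3). Of these 7, 1 was lower and 4 were higher after GC and length correction, with RNF20 (-0.21) not called. The call of RNF40 (adjusted p = 0.0375, limma) was lost when any 1 library other than siVCPIP1 replicate 3 was left out.

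UBE2T, the E2 that monoubiquitinates FANCD2 in the Fanconi anaemia pathway of DNA crosslink repair, was at 108, 124 and 115 TPM in siControl and 17.5, 12.95 and 37.2 TPM in siVCPIP1 (log2 fold change -2.44, SE 0.32, adjusted p = 1.2e-04; -0.65 after GC and length correction). All 8 tested Fanconi genes fell as deposited and none rose. FANCL, the ligase that works with UBE2T, fell furthest (-3.12), from 20.1, 25.6 and 20.1 TPM to 1.01, 0.98 and 3.53 TPM. FANCD2 (-1.75), FANCF (-1.55) and FANCC (-1.41) followed, but GC and length correction turned FANCF to 0.45 (called higher) and left FANCD2 (0.17) and FANCC (-0.08) not called. After GC and length correction 3 of the 8 were lower, FANCL among them (-0.66), and 2 higher.

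Among the E2s of ER-associated degradation, which disposes of misfolded proteins of the endoplasmic reticulum, 3 of 4 fell. UBE2G1 was at 25.5, 29.1 and 27.1 TPM in siControl and 1.96, 1.63 and 5.47 TPM in siVCPIP1 (log2 fold change -2.93, SE 0.33, adjusted p = 4.8e-05). UBE2G2 was at 30.4, 33.4 and 33.04 TPM and 8.44, 6.42 and 12.6 TPM (log2 fold change -1.76, SE 0.23, adjusted p = 1.2e-04). The membrane-anchored UBE2J1 was at 5.12, 6.65 and 4.58 TPM and 1.08, 1.09 and 2.64 TPM (log2 fold change -1.35, SE 0.25, adjusted p = 0.00103), but lay at 0.24 after quantile normalization and turned to 0.88 after GC and length correction. Its relative UBE2J2 was at 36.7, 40.1 and 33.99 TPM and 33.6, 28.8 and 38.5 TPM, overlapping between the groups and not called (log2 fold change -0.14, SE 0.16, adjusted p = 0.446). UBE2J2 had no settled direction: it was higher after median-of-ratios scaling (1.06) and quantile normalization (0.66) and lower after GC and length correction (-0.36). The TPM ratio of UBE2G1 to UBE2J2 was 0.695, 0.725 and 0.798 in siControl and 0.0584, 0.0566 and 0.142 in siVCPIP1 (exact permutation p = 0.1), the largest shift on the log2(TPM + 1) scale of any pair compared within a role.

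Of 11 ligases and cofactors of this pathway, 8 fell and 2 rose, AUP1, which recruits UBE2G2 (from 291 ± 16.7 to 446 ± 37.8 TPM), and STUB1 (from 188 ± 28.5 to 247 ± 14.04 TPM; SD, n = 3), of which STUB1 lay at -0.22 and was not called after GC and length correction. A rise was called for 1 of the 11 without siControl replicate 2 or 3, or without siVCPIP1 replicate 1 or 2. MARCHF6 (-2.70), RNF139 (-2.60), SEL1L (-2.49) and SYVN1 (-2.34) fell most. SYVN1, the central ligase of the pathway, was at 17.4, 20.8 and 15.2 TPM in siControl and 2.12, 1.48 and 5.44 TPM in siVCPIP1, and lay at -2.06 after GC and length correction, where 4 of the 11 genes were lower and 5 higher.

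The E2s that build K48-linked chains both fell as deposited. UBE2K was at 24.9, 29.1 and 23.3 TPM in siControl and 4.03, 4.53 and 8.32 TPM in siVCPIP1 (log2 fold change -2.06, SE 0.26, adjusted p = 8.7e-05). UBE2R2, a partner of cullin ligases, was at 60.6, 68.8 and 69.2 TPM and 24.98, 23.96 and 35.7 TPM (log2 fold change -1.22, SE 0.18, adjusted p = 2.5e-04). UBE2R2 lost its call after median-of-ratios scaling (-0.02) and turned to 0.57 after GC and length correction, under which UBE2K was not called (0.15). CDC34, the paralog of UBE2R2 whose symbol lies outside the naming rule, went the other way, at 173, 169.9 and 144 TPM in siControl and 313, 295 and 286 TPM in siVCPIP1 (log2 fold change 0.88, SE 0.12, adjusted p = 1.9e-04, limma), and was higher under all 3 scalings. Of the 8 E2 and E2-like genes outside the rule, 6 fell, led by TSG101 (-3.32), the autophagy E2 ATG3 (-3.11) and AKTIP (-3.05), and UFC1, the E2 for UFM1, was not called (-0.03, adjusted p = 0.818, limma) but was higher after median-of-ratios scaling and GC and length correction.

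UBE2L3 works mainly with HECT and RBR ligases, which take ubiquitin onto a cysteine of their own, and UBE2L6 is the E2 for the interferon-induced modifier ISG15. UBE2L3 was at 171, 190.0 and 186 TPM in siControl and 57.4, 59.3 and 105 TPM in siVCPIP1 (log2 fold change -1.35, SE 0.22, adjusted p = 4.8e-04), a call lost after median-of-ratios scaling (-0.13) and GC and length correction (-0.08). UBE2L6 was at 15.7, 14.1 and 15.7 TPM and 10.3, 10.1 and 16.1 TPM, with siVCPIP1 replicate 3 above all siControl libraries, and was not called (log2 fold change -0.32, SE 0.21, adjusted p = 0.189). Without that replicate it was called lower, and it was higher after median-of-ratios scaling (0.82) and quantile normalization (1.02). The modifier ISG15 itself rose from 1648 ± 294 to 5417 ± 987 TPM, and UBA7, its E1, from 1.69 ± 0.14 to 2.803 ± 0.04 TPM (SD, n = 3), while HERC5, its main ligase, fell (-1.11; 0.95 after GC and length correction). Of 16 genes for HECT and RBR ligases and their partners, 13 fell and 3 rose. The 3 that rose were the subunits of the linear ubiquitin chain assembly complex, RNF31 (0.58), RBCK1 (0.54) and SHARPIN (1.17). These 3 were also higher after GC and length correction and median-of-ratios scaling. RNF19A fell furthest (-3.57), and RNF19B fell from 259 ± 50.7 to 41.6 ± 30.2 TPM. Of these 16, 8 were lower and 5 higher after GC and length correction.

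The other 6 E2 genes all fell as deposited. UBE2W, which attaches ubiquitin to the N-terminus of proteins, was the least abundant tested E2 at 3.92, 3.68 and 2.88 TPM in siControl and 0.52, 0.36 and 0.81 TPM in siVCPIP1 (log2 fold change -1.53, SE 0.16, adjusted p = 3.9e-05), and was not called after quantile normalization (-0.14) and turned to 0.48 after GC and length correction. UBE2H, the E2 of the CTLH ligase, was at 41.2, 49.6 and 48.4 TPM and 5.69, 4.77 and 13.6 TPM (log2 fold change -2.52, SE 0.33, adjusted p = 1.1e-04). UBE2Q2 was at 12.4, 13.95 and 11.7 TPM and 0.73, 0.68 and 1.99 TPM (log2 fold change -2.73, SE 0.25, adjusted p = 2.2e-05). Its relative UBE2Q1 was at 29.4, 35.7 and 37.3 TPM and 4.45, 4.02 and 12.5 TPM (log2 fold change -2.28, SE 0.36, adjusted p = 3.4e-04). UBE2Z, which is charged by the second ubiquitin E1, UBA6, was at 36.98, 41.9 and 34.6 TPM and 7.13, 5.85 and 16.7 TPM (log2 fold change -1.96, SE 0.33, adjusted p = 5.1e-04), and UBA6 fell with it (-1.97; -0.03 and not called after GC and length correction). UBE2O, a large enzyme that acts as E2 and E3 in 1 chain, was at 10.8, 11.7 and 11.1 TPM and 3.39, 2.86 and 7.12 TPM (log2 fold change -1.24, SE 0.28, adjusted p = 0.00318). UBE2H, UBE2Q1, UBE2Q2 and UBE2Z were lower under all 3 scalings, whereas UBE2O was not called after median-of-ratios scaling (-0.19) and turned to 0.34 after quantile normalization (adjusted p = 0.0495, limma).

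**Figure D3:**
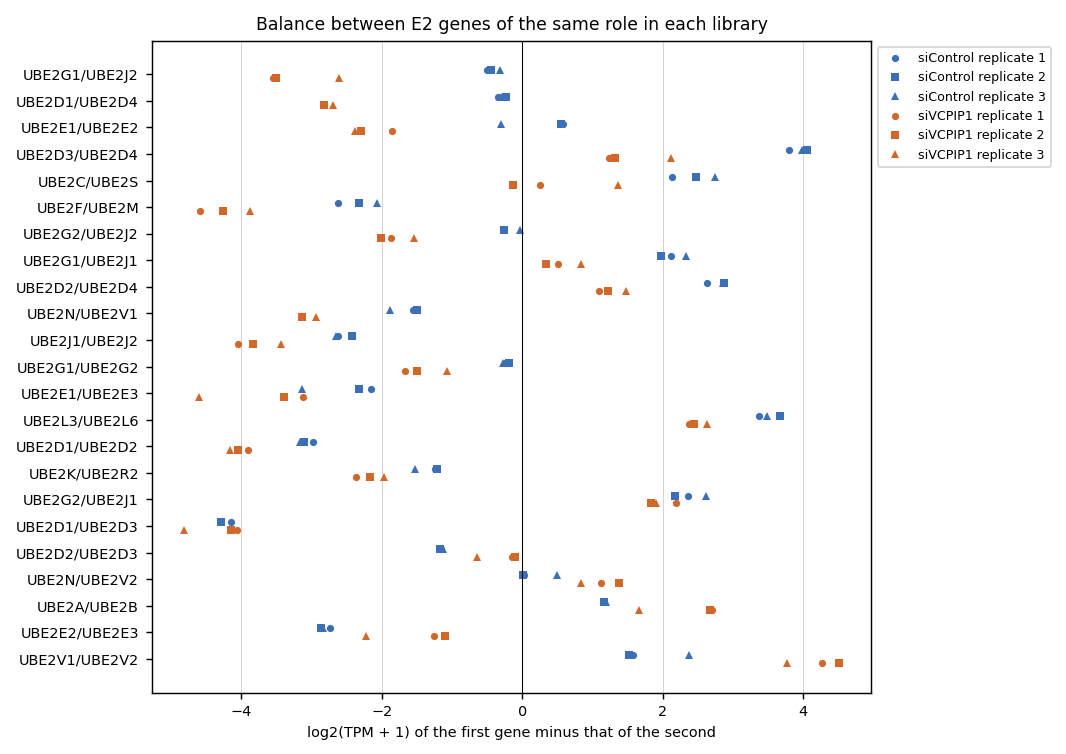
Difference in log2(TPM + 1) between 2 E2 genes of the same role in each library, for all 23 pairs, ordered by the difference between groups. Blue marks are siControl, orange marks siVCPIP1, and the shape gives the replicate. The UBE2G1/UBE2J2 pair shifts furthest down and UBE2V1/UBE2V2 furthest up, while the groups overlap for UBE2D1/UBE2D3 on this scale.

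In all, 23 pairs of E2 genes of the same role were compared, and in 20 the difference in log2(TPM + 1) did not overlap between the groups (exact permutation p = 0.1 each, Benjamini-Hochberg adjusted over the 23 pairs 0.115, neither of which can reach 0.05 with 3 libraries against 3). Of all 60121095 pairs of tested genes, 82.7% did not overlap either. The 3 E2 pairs that overlapped were UBE2D1/UBE2D3, UBE2E1/UBE2E3 and UBE2G2/UBE2J1. For the first and second of these the TPM ratios themselves did not overlap, at 0.218, 0.195 and 0.109 in siControl and 0.0253, 0 and 0.0137 in siVCPIP1 for UBE2E1/UBE2E3.

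Falls were larger and more frequent among the AT-rich E2 messages, as they were among other genes. Transcript GC content ran from 34.0% (UBE2D1) to 65.6% (UBE2M), with a median of 45.4% for the E2 genes and 50.4% for all tested genes. All 16 E2 genes under 45% fell, where 97.4% of all such genes fell. Of 10 from 45% to under 55%, 9 fell and UBE2D4 was not called, against 78.1% lower and 5.18% higher among all genes of that class. Of 6 at 55% and over, 2 rose (UBE2M and UBE2S), 2 fell (UBE2O among them), and UBE2J2 and UBE2L6 were not called, where 26.8% of all genes of that class fell and 37.2% rose. Across the 32 genes, which are not independent replicates and come from the same libraries, log2 fold change correlated with transcript GC content at r = 0.57 (Spearman's rho 0.50), with GC at the third base of codons at 0.63 (0.51) and with GC of the 3′ UTR at 0.61 (0.59). The corresponding values over all genes were 0.72, 0.64 and 0.71 (Pearson). Transcript length was related more weakly, at -0.11 for the E2 genes and -0.30 for all genes.

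**Figure D4:**
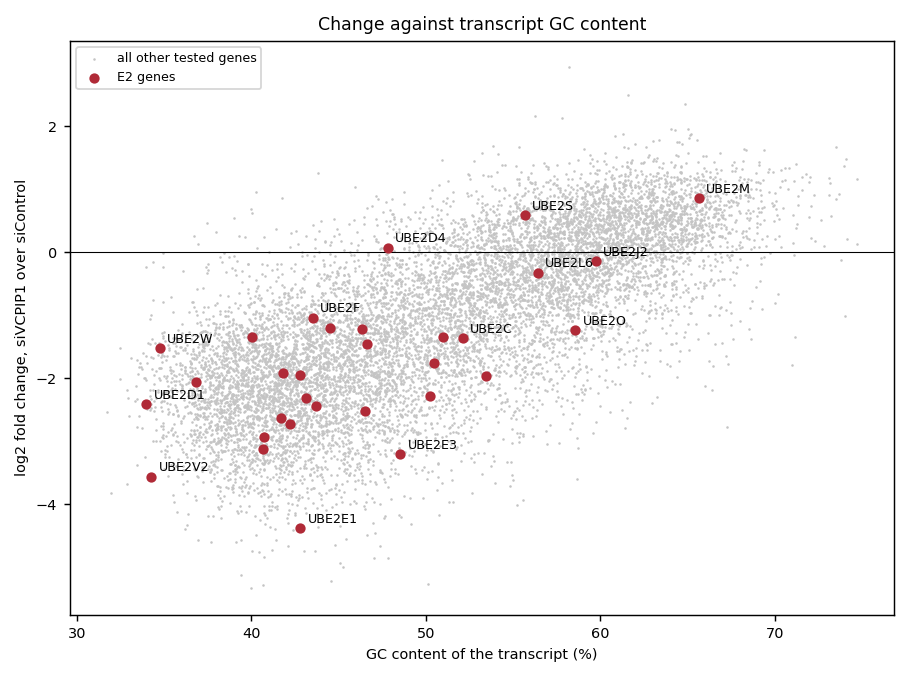
Log2 fold change against the GC content of the transcript for the 10917 tested genes with a matched transcript, of which 31 E2 genes are red and the others grey. UBE2E1 (42.8%, -4.38) lies in the lower part of the cloud. UBE2D4 (47.8%, 0.07) lies in its upper part, where all genes from 45% to under 55% run from -5.27 to 1.68.

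The order of levels within the family differed between the groups. Among the most abundant E2 messages in siControl were UBE2C, UBE2S, UBE2L3 and UBE2D3, with means of 1126, 206, 182 and 149.6 TPM. In siVCPIP1 the 5 most abundant were UBE2C, UBE2S, UBE2M, UBE2L3 and UBE2V1, at 471, 308, 179, 73.8 and 49.9 TPM. UBE2M was ninth in siControl and in the third place in siVCPIP1. Neighbours in the siControl order were often not told apart: in 21 of 31 neighbouring pairs the ranges of the 3 libraries overlapped. Summed over all 33 genes, E2 messages took up 3105 ± 200.1 TPM per siControl library and 1390.2 ± 368 TPM per siVCPIP1 library, or 1979.7 ± 121 and 918.9 ± 129.9 TPM without UBE2C (SD, n = 3).

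At the start of the relay, the genes for ubiquitin and its relatives did not move as one. Of 14 tested, 8 fell and 6 rose, with a median of -0.49. Of the genes that encode ubiquitin itself, the polyubiquitin gene UBB was at 1666, 1623 and 1899 TPM in siControl and 981, 1031 and 1514 TPM in siVCPIP1 (-0.58), and the fusion gene RPS27A fell as well (-0.57). The fall of RPS27A turned to a rise of 1.27 after GC and length correction and of 0.66 after median-of-ratios scaling, and that of UBB to 0.65 under the latter, with UBB not called (0.19) under the former. NEDD8 fell by 0.42 as deposited and was still lower after GC and length correction (-0.48), whereas median-of-ratios scaling turned this to 0.81. UBA1, the main ubiquitin E1, was at 204, 212 and 223 TPM in siControl and 206, 203 and 225 TPM in siVCPIP1, overlapping and not called (log2 fold change -0.01, SE 0.11, adjusted p = 0.924, limma), but was higher after median-of-ratios scaling (1.21) and GC and length correction (0.56). Of 10 E1 genes 7 fell, 1 rose (UBA7) and ATG7 was also not called. The rise of UBA7 was not called without siControl replicate 1. UBA3 and NAE1, the subunits of the NEDD8 E1, fell by 2.96 and 2.51, the former still lower (-0.51) and the latter not called (-0.07) after GC and length correction. Over all 120 tested genes of these partner lists, 93 fell and 22 rose, with a median of -1.40, where 66.0% of all tested genes fell and 15.0% rose.

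**Figure D5:**
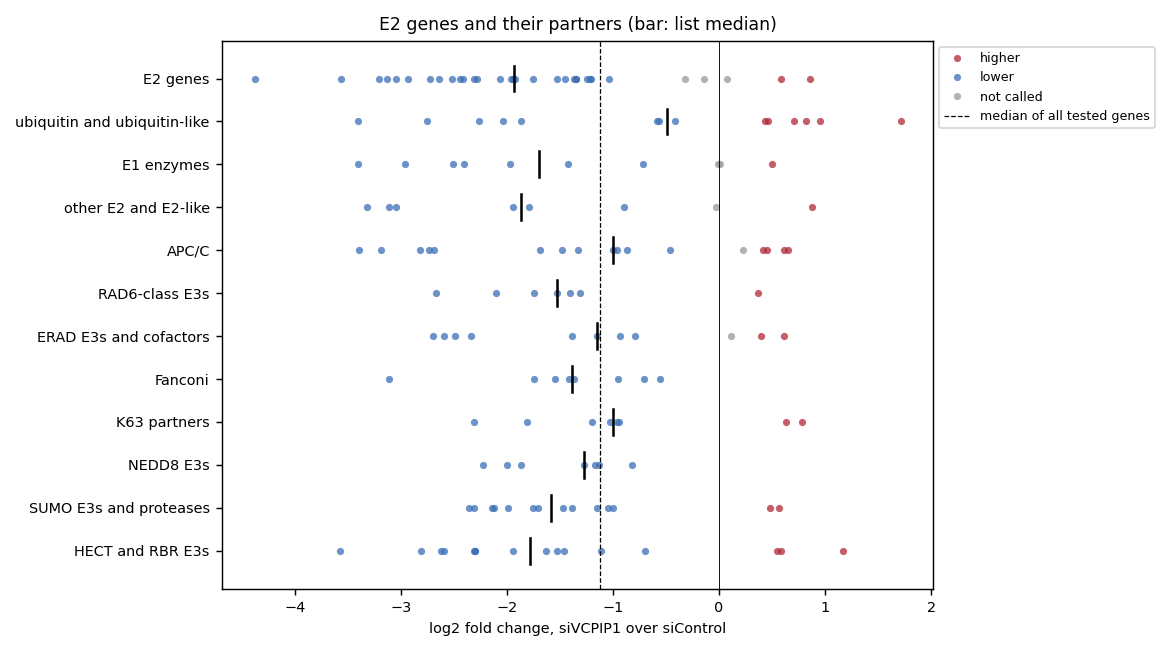
Log2 fold change of the tested E2 genes and of each partner list (points, coloured by call), with the list median as a black bar and the median of all tested genes (-1.12) as a dashed line. The median of the E2 genes is -1.94 and that of the ubiquitin and ubiquitin-like genes -0.49.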

How the data were processed

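The 6 AsPC-1 libraries (total RNA taken up in Trizol, MGISEQ-2000RS library protocol, per the labels' protocols) were deposited by the authors as 1 table of TPM, a value per symbol with 2 decimals. GRCh38.p13 is named in the submitters' processing notes, while aligner, counter, gene models and strand setting are not stated. TPM retains no read depth, so no counting error could be given.

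Values were compared as log2(TPM + 1), which understates changes of low genes, in the 10966 genes whose mean reached 1 TPM, with limma 3.58.1 in R 4.3.3 (mean trend, group as the only term, two-sided, Benjamini-Hochberg over those genes, threshold 0.05). The fit was also run on simulated data, which did not copy all the differences between these groups, so this lends the calls no support. Base composition and length were read from 1 GENCODE 29 coding transcript per gene, matched for 10917 of them, which may differ from the gene models used by the authors. Their correction regressed each library on splines of GC (5 df), log length (3 df) and the interaction. Alternatives were pseudocounts of 0.1 and 5 TPM, no minimum or one of 5 TPM, the scalings, no trend, a replicate block and leaving out each library; the corrections with a pseudocount of 0.1 and on coding sequence were chosen after seeing the data.

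Members and lists were chosen with earlier results of these data known. The genes under the naming rule are described, except 1 that is counted but not reported here, with VCPIP1, up to 4 called genes of largest change per partner list, and genes making up a count of 5 or fewer. Other partner genes named (among them CDC20, FANCF, HERC5, RNF8, SAE1, SUMO2, SUMO3 and UBA6) were chosen after their values were seen.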

Additional observations from a re-analysis of the deposited data

How the results depend on the processing

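The counts of calls moved with the scaling, and the cause was not tested. Of the E2 genes, GC and length correction left 16 lower and 11 higher, the same with a pseudocount of 0.1 TPM 12 and 12, and the coding form 15 and 11, while median-of-ratios scaling called 5 higher and quantile normalization 6. Over all genes these 5 fits, in the same order, called 4062, 3930, 4393, 4416 and 4625 higher, and 3459, 3384, 3659, 4951 and 4258 lower, against 4679 lower at a minimum mean of 5 TPM, where fewer genes were tested. Of the partner genes they called 38, 31, 35, 60 and 53 lower and 53, 60, 55, 35 and 34 higher. VCPIP1 turned to 0.27 after GC and length correction (adjusted p = 0.065, limma) and 0.28 in the coding form (adjusted p = 0.09), but was lower at -0.55 with the lower pseudocount (adjusted p = 0.016).

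Log2 fold changes of E2 genes that changed sign were UBE2A 0.35, UBE2D2 0.40, UBE2E2 0.40, UBE2F 1.20, UBE2J1 0.88, UBE2K 0.15, UBE2R2 0.57, UBE2V1 0.92 and UBE2W 0.48 after GC and length correction. With the lower pseudocount they were UBE2A 0.74, UBE2D2 0.74, UBE2D3 0.42, UBE2E2 0.80, UBE2F 1.58, UBE2J1 1.21, UBE2K 0.98, UBE2L3 0.15, UBE2R2 1.001, UBE2V1 1.32 and UBE2W 0.71. In the coding form they were UBE2D2 0.71, UBE2E2 0.012, UBE2F 1.07, UBE2J1 0.75, UBE2J2 0.72, UBE2K 0.18, UBE2L3 0.52, UBE2R2 0.53, UBE2V1 0.86 and UBE2W 0.61, and UBE2L6, not called as deposited, lay at 0.0012. Median-of-ratios scaling gave UBE2F 0.096, UBE2J2 1.06, UBE2L6 0.82 and UBE2V1 0.0055, and quantile normalization UBE2F 0.33, UBE2J1 0.24, UBE2J2 0.66, UBE2L6 1.02 and UBE2O 0.34.

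Leaving out 1 library at a time gave 27 to 28 lower and 2 higher E2 genes. Without siVCPIP1 replicate 3, UBE2L6 was called lower (-0.53, adjusted p = 0.0013, limma), and no other E2 gene changed its call when a library was left out. Of the partner genes, 90 to 94 were then lower and 16 to 22 higher. Same-numbered libraries deviated from their group means with correlations of 0.53, -0.27 and 0.16. Deviations from the mean of 3 libraries are tied to one another, so these values cannot decide whether the numbers pair the libraries. With the replicate number as a block, 27 E2 genes were lower and 2 higher, and 7085 of all genes were lower and 1586 higher. With 3 libraries a group, exact permutation tests cannot go below p = 0.1.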
